A study of Mus musculus with 1677 samples.

Results

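The insulin-like growth factor (IGF) and growth hormone axis was followed here through 8 genes, Ghr, Socs2, Cish, Igf1, Igfals, Igfbp3, Igfbp1 and Igfbp2, which were taken by name from a table of 24537 rows, each row a gene. They were described by their level in each tissue, their course over the day, and the difference between 2 feeding groups. The libraries came from wild type C57BL/6J mice that were bought at 10 weeks of age, kept on chow for 2 weeks in 12 h light and 12 h dark, and then given a Western diet (45% fat, 17% sucrose) for 7 weeks. One group ate without restriction (ad-libitum feeding, ALF) and the other had the same diet in a daily meal of 9 h that began at ZT13 and ended at ZT22 (time-restricted feeding, TRF), where ZT counts hours from lights on. Tissue was taken every 2 h at 12 clock times from 22 tissues, usually with 2 libraries for each tissue, feeding group and time. The labels used here do not give the sex of the mice. They also do not say that the libraries of a group came from separate mice, so each p-value below measures the spread between libraries, part of which may be technical.

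Growth hormone from the pituitary binds the growth hormone receptor (Ghr), which signals through JAK2 and STAT5. STAT5 induces Igf1, the acid-labile subunit Igfals, and the feedback inhibitors Socs2 and Cish, which damp signalling from cytokine receptors. Most circulating IGF-1 comes from the liver and travels in a complex with IGFBP-3 and the acid-labile subunit. IGFBP-1 and IGFBP-2 bind IGFs outside that complex. Liver Igfbp1 is repressed by insulin and rises in fasting, and Igfbp2 is also held to respond to insulin and leptin.

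All members but Socs2, 7 of 8, had a promoter entry in RefSeq (GRCm38.p6). Of those promoters 2, picked by hand, are shown. Each holds more than 1 match to letter patterns that are tied to the axis in textbooks, Cish to the same pattern and Igfbp1 to different ones. Each is printed 5′ to 3′ on the gene's own strand, from 250 bases before the start of transcription to 30 bases after it, in lower case with the matched letters in capitals. The Cish stretch lies at chr9:107296409-107296688 on the plus strand and holds the STAT5 pattern TTCNNNGAA, searched on both strands, at positions 1 and 12 counted from the start. The Igfbp1 stretch lies at chr11:7197537-7197816 on the plus strand. It holds the insulin response patterns TGTTTTG, read on the other strand as CAAAACA, 108 bases before the start, and TATTTTG 97 bases before it.
Cish: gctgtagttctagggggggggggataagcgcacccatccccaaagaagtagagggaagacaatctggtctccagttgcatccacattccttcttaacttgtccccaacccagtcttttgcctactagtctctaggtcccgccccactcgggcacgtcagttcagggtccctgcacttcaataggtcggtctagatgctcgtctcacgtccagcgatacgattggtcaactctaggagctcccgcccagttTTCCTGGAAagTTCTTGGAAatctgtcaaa
Igfbp1: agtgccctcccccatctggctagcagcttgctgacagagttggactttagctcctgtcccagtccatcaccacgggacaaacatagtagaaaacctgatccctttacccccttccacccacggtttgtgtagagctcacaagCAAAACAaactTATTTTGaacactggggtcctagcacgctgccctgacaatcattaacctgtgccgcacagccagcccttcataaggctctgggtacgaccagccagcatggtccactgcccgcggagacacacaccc

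The same window, 250 bases before to 30 bases after the start, was searched in the 32851 promoters of 27025 genes in the same reference. TTCNNNGAA was found in 7.83% of them, and 2 or more times in 0.408%. TGTTTTG was found in 5.97%, TATTTTG in 4.2%, and both in 0.438%. Igfals has 3 start sites in the reference, with 1 match to TTCNNNGAA at 236 bases before the first (TTCTCAGAA) and 1 at 58 bases before the second (TTCCTAGAA). The windows of Ghr, Igf1, Igfbp2 and Igfbp3 held none of these patterns. A match describes letters and shows no binding.

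In the gene annotation of the same build (GENCODE vM21), Ghr lies on chromosome 15 from 3317760 to 3583492, Igf1 on chromosome 10 from 87858265 to 87937042 and Socs2 on the same chromosome from 95385362 to 95417180. Igfals lies on chromosome 17 from 24865997 to 24882010 and Igfbp2 on chromosome 1 from 72824503 to 72852474. Igfbp1 (7197782 to 7202546) and Igfbp3 (7206086 to 7213923) are neighbours on chromosome 11, on opposite strands. Cish lies on chromosome 9 from 107296026 to 107302784, and 7.46% of its exon bases overlap the antisense gene Gm17041 and 4.07% the pseudogene Gm17040, both on the other strand. Since the use of strand in counting is not given in the sources used here, reads of Cish and of these genes may not be told apart. The other members overlap no exon of another gene.

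There were 1035 libraries in the table (ALF 517, TRF 518), with totals of 2.26 to 501 M counts and a median of 11.3 M. A total of 15 libraries correlated best with another tissue than their own, among them 5 ALF libraries of inguinal fat that were nearest to epididymal fat and 4 of kidney medulla that were nearest to kidney cortex, and 3 libraries exceeded 100 M counts. Differences between the feeding groups that rest on these 18 libraries are given without them where the call ended. Single daily rhythms are not given without them. Levels are in CPM, a gene's counts relative to the library's total, errors after ± beside levels are SD over libraries, and 2 neighbours in an order of tissues are said to overlap where their mean ± SD ranges meet. Hepatocyte markers (7 of 7 detected) summed to 98420 to 133900 CPM over ALF liver libraries and 89790 to 142500 CPM over TRF ones. In whole tissue, fewer cells of a type and less RNA per cell cannot be told apart.

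The liver had the highest mean level of Igf1, Igfals and Igfbp1, while the other members were highest elsewhere. Ghr was highest in kidney medulla at 1836 ± 326 CPM (n = 48), ahead of epididymal fat (1285 ± 210), kidney cortex (1129 ± 156) and inguinal fat (966 ± 238). The last 3 overlapped in turn. The liver (594 ± 124) and brown fat (554 ± 149) followed and overlapped each other, and brown fat stood 2.63-fold above the heart (210.3 ± 23.1). The lowest level of Ghr was in the dentate gyrus at 11.42 ± 2.515 CPM (n = 46). Per kb of the longest transcript, Ghr was at 440 CPM in kidney medulla and 142 in the liver, more than Igf1 in the liver at 73.5.

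The feedback genes had other orders. Socs2 was highest in the lung at 94.5 ± 18.6 CPM (n = 46), above the ileum (60.6 ± 11.5), duodenum (55.5 ± 10.2) and jejunum (53.6 ± 9.74), which overlapped. In the liver Socs2 was at 11 ± 10.75 CPM (n = 48). Cish was highest in the heart at 88.1 ± 25.2 CPM (n = 48), 2.35-fold above the lung (37.4 ± 6.99). Muscle (30.5 ± 27.2), brown fat (30.4 ± 32.9) and pancreas (27.6 ± 25.1) came next, each with an SD close to its mean, and the liver was at 17.99 ± 20.99 CPM.

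Igf1 was at 518 ± 93.0 CPM in the liver (n = 48), 1.66-fold above epididymal fat (313 ± 69.9), with inguinal fat (300.5 ± 68.7) overlapping the latter. Spleen (87.9 ± 12.6) and brown fat (86.8 ± 35.1) came after a gap of 3.42-fold. Igfals, whose protein holds IGF-1 in the large serum complex, was at 110.2 ± 32.0 CPM in the liver, 94.2 ± 36.6 in epididymal fat and 84.5 ± 53.0 in inguinal fat, which all overlapped. No other tissue had a mean Igfals level above 7.61 ± 2.96 CPM, that of the pancreas (n = 46), so inguinal fat stood 11.1-fold above the next tissue.

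The binding proteins were spread over different organs. Igfbp3 was highest in the spleen at 277 ± 62.8 CPM (n = 44), followed by duodenum (201.4 ± 70.7), kidney cortex (168 ± 62.7), adrenal gland (164 ± 60.0) and jejunum (163 ± 45.4), each overlapping the next. The liver, at 14.6 CPM, ranked 20 of 22 for Igfbp3. Igfbp1 was found at 35.5 ± 76.4 CPM in the liver, 7.69 ± 6.71 in kidney cortex and 5.51 ± 3.43 in kidney medulla (n = 48 each), and at a mean of 0.382 CPM or less in the other 19 tissues. Muscle had 0 counts of Igfbp1 in all 48 libraries. Igfbp2 was highest in the lung at 292 ± 93.5 CPM (n = 46), which overlapped the liver at 247 ± 142, and the stomach followed at 62.2 ± 18.5.

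**Figure D1:**
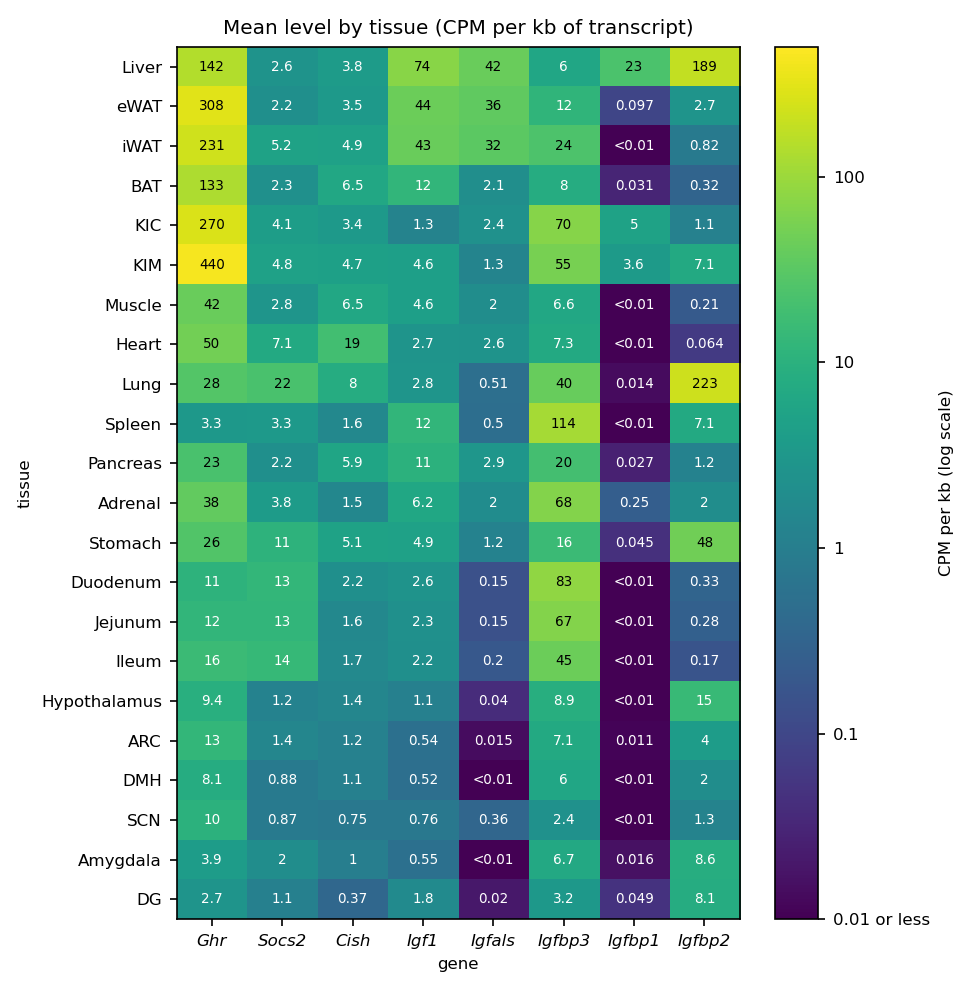
Mean level of each member (columns) in each tissue (rows) in CPM per kb of the longest transcript, on a logarithmic colour scale, with the value in each cell. Ghr reaches 440 in kidney medulla, Igfbp2 223 in lung and 189 in liver, and Igfbp1 is above 1 in liver and the 2 kidney regions (KIC, cortex; KIM, medulla) only.

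Orders across tissues rest on how libraries are scaled, since a few very abundant RNAs take a large part of some tissues' counts. With one set of TMM factors over all libraries (0.179 to 1.5), the top tissue stayed for every member except Igfbp2, for which the liver passed the lung. On that scale the liver was at 1151 CPM for Ghr, 1009 for Igf1, 214 for Igfals, 482 for Igfbp2 and 28.4 for Igfbp3. The liver moved from rank 13 to 7 for Socs2, from 9 to 4 for Cish and from 20 to 12 for Igfbp3. Across the 22 tissue means, levels of Ghr and Igfals went together (Spearman rho 0.823), as did those of Igf1 and Igfals (0.81) and those of Igfals and Cish (0.721). These are descriptions over tissues that share library scaling, and carry no test.

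In the liver, TRF was compared with ALF in a light-phase window of 7 clock times (ZT0 to ZT12, n = 14 libraries a group), in which TRF mice had no food, and in a window of 5 (ZT14 to ZT22, n = 10 a group) that held their meal. The fold changes are log2 values (TRF minus ALF) from edgeR's quasi-likelihood test with Benjamini-Hochberg adjustment over all genes of the tissue, with ± SE, and a gene was called at an adjusted p under 0.05. Of the 8 members, 1 passed in each window, Igfbp2 both times, where 7.64% of all tested liver genes passed in the first window and 26.3% in the second.

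Liver Igfbp2 was higher in TRF in both windows. From ZT0 to ZT12 it ran from 72.2 CPM through a median of 191 to 318 in ALF, and from 198 through 261 to 772 in TRF. The TRF mean was higher at 7 of 7 clock times, although the groups overlapped. The mean was 188 ± 68.9 CPM in ALF and 351 ± 180 in TRF, a log2 fold change of 0.92 ± 0.21 (edgeR, adjusted p = 0.00569). The widest gap was at ZT8, with ALF libraries at 141 and 293 CPM and TRF libraries at 772 and 256, so that at this time only 1 of the 2 TRF libraries stood above ALF. From ZT14 to ZT22 the range was 111 to 529 CPM around a median of 131 in ALF and 149 to 486 around 236 in TRF. That difference was 0.69 ± 0.26 (edgeR, adjusted p = 0.043), with TRF higher at 4 of 5 times. It did not pass once ZT0 and ZT22, the boundary times, were left out (adjusted p = 0.0944). Neither window passed without the replicate 1 libraries (adjusted p = 0.592 and 0.337).

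Liver Igfbp1 varied with clock time in both groups. In ALF it was highest at ZT0, with libraries at 520 and 97.8 CPM, stood at 57.8 and 38.7 at ZT2, and lay between 7.92 and 71.6 at the other times. In TRF the ZT0 libraries were at 131 and 75.5 CPM, and in the meal window values were low, at 7.20 and 0.633 at ZT14, 10.4 and 2.18 at ZT16 and 2.02 and 4.14 at ZT18. The ALF libraries at these 3 times were between 8.72 and 25.3 CPM, and at each of the 3 both TRF libraries lay below both ALF libraries. At ZT20 the TRF libraries were back at 15.5 and 46.2 CPM. Over ZT14 to ZT22 the log2 fold change was -1.12 ± 0.51 (edgeR, adjusted p = 0.0958), which did not pass. It was -1.59 (adjusted p = 0.0192) with the boundary times left out and -1.19 (adjusted p = 0.0446) with DESeq2. From ZT0 to ZT12 it was 0.20 ± 0.42 (adjusted p = 0.847).

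Liver Socs2 differed most by fold in the light phase and stood just above the threshold. From ZT0 to ZT12 the ALF libraries ran from 1.45 CPM through a median of 6.12 to 16.6, and the TRF libraries from 3.72 through 16.4 to 55.0. The highest values were at ZT6 (TRF 55.0 and 22.6, ALF 4.57 and 7.47) and ZT0 (TRF 43.6 and 21.6, ALF 10.8 and 4.12). TRF was higher at 6 of 7 clock times, with a log2 fold change of 1.33 ± 0.44 (edgeR, adjusted p = 0.0559). This value passed with no filter on low counts (adjusted p = 0.0394) and with DESeq2 (adjusted p = 0.0284). In the meal window the direction was not held. At ZT16 the TRF libraries were at 1.21 and 0.946 CPM against 7.87 and 4.80 in ALF, at ZT14 they were at 10.8 and 11.6 against 6.18 and 5.02, and over the window the log2 fold change was -0.32 ± 0.57 (adjusted p = 0.707). The difference between the windows did not pass (-1.65, adjusted p = 0.152).

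Liver Ghr, Igf1, Igfals, Igfbp3 and Cish did not pass in either window. Ghr from ZT0 to ZT12 had a median of 671 CPM (351 to 745) in ALF and 585 (350 to 801) in TRF, with a log2 fold change of -0.16 ± 0.09 (edgeR, adjusted p = 0.338). At ZT4 both TRF libraries, at 350 and 353 CPM, lay below both ALF libraries, at 638 and 609, and at ZT0 both groups were low (ALF 351 and 433, TRF 421 and 385). Igf1 had medians of 532 and 536 CPM in ALF and TRF in the first window (0.09 ± 0.09, adjusted p = 0.607) and of 529 and 510 in the second (0.05 ± 0.10, adjusted p = 0.724). Igfals from ZT14 to ZT22 ran from 50.3 through 104 to 152 CPM in ALF and from 71.9 through 131 to 186 in TRF (0.35 ± 0.18, adjusted p = 0.132). It passed with the boundary times left out (0.55, adjusted p = 0.0327). Igfbp3 was at 0.07 ± 0.14 and -0.05 ± 0.17 (adjusted p = 0.849 and 0.861). Cish had the widest errors, at -0.54 ± 0.77 and -0.50 ± 0.95 (adjusted p = 0.749 and 0.728), with single libraries between 0.613 and 79.8 CPM.

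**Figure D2:**
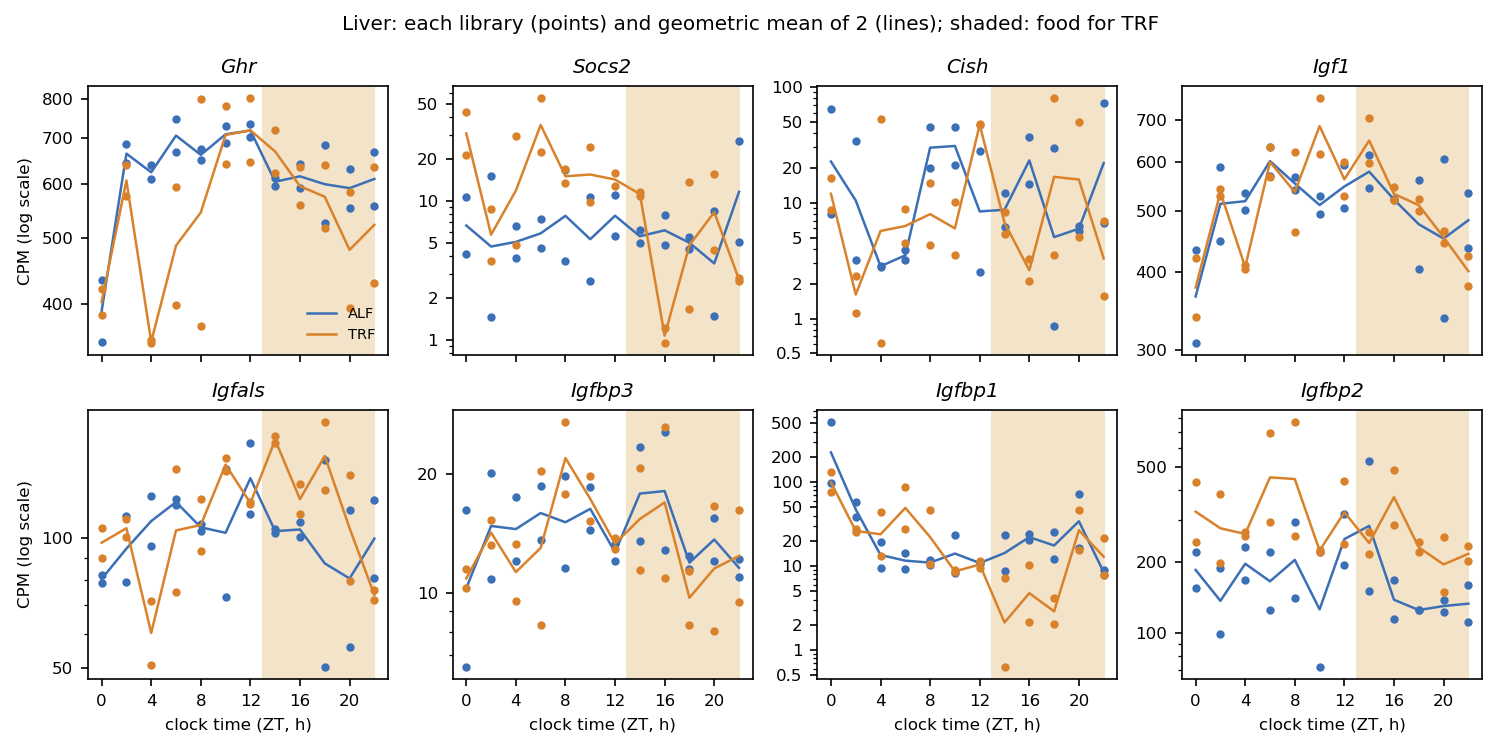
Each panel plots 1 member in the liver against clock time (ZT, hours), in CPM on a logarithmic axis, with a point for each library, lines through the geometric mean of the 2 libraries of a group, and shading for the hours in which TRF mice had food. Igfbp1 falls from ZT0 in both groups and reaches 0.633 CPM in TRF at ZT14, Igfbp2 lies higher in TRF at 7 of 7 times from ZT0 to ZT12, and the points of Cish and Socs2 from the same group and time lie far apart.

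The daily course was tested with a cosine of 24 h in each group. In the ALF liver 1 of 8 members passed, Igfbp1, where 25.7% of all genes did, and in the TRF liver 5 of 8 passed, where 49.0% did. Igfbp1 had an amplitude (peak above the middle of the curve, log2) of 1.00 ± 0.36 with a peak at ZT23.1 ± 1.39 h in ALF, a 4.00-fold peak to trough (edgeR, adjusted p = 0.000371). In TRF it had 1.85 ± 0.36 at ZT2.75 ± 0.75 h, a 13.1-fold peak to trough (adjusted p = 0.000683). The highest ALF library of Igfbp1, at ZT0, was at 520 CPM, where the ALF median was 15.4 CPM. The ALF rhythm was not tested with only that library left out. Socs2 in TRF had an amplitude of 1.22 ± 0.34 and a peak at ZT6.17 ± 1.06 h (adjusted p = 0.0284), against 0.04 ± 0.34 in ALF (adjusted p = 0.836). Igf1 (0.26 ± 0.07, peak at ZT10.9, adjusted p = 0.0057), Ghr (0.27 ± 0.08, adjusted p = 0.0162) and Igfals (0.39 ± 0.11, peak at ZT14.1, adjusted p = 0.013) made up the rest in TRF. None of them was shown to differ in rhythm between the groups. For the rhythm difference 8.71% of liver genes passed and 0 of 8 members did, with edgeR adjusted p-values from 0.206 for Igfbp1 to 0.899 for Igfbp3, and 1 of 8 (Igfbp1, p = 0.0438) at an unadjusted p under 0.05. For the difference between the 2 windows 7.68% of liver genes passed and again 0 of 8 members.

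Liver genes that are known to follow the growth hormone pattern in the blood were taken from 2 lists, one of genes higher in male mouse liver and one of genes higher in female mouse liver. They were chosen from general knowledge with earlier results of these data known. Of the male list, 18 of 18 genes were tested, and 9 rose from ZT0 to ZT12 and 10 from ZT14 to ZT22 in TRF, with 0 lower in either window. Over all liver genes 3.62% rose and 4.02% fell in the first window, and 12.1% rose and 14.3% fell in the second. The median log2 fold change of the list was 0.89 and 1.08, against 0.003 and -0.006 over all 12356 genes tested. Of the female list, 9 of 20 genes passed the filter on low counts, and of these 6 fell in each window and 0 rose. The other 11 were too low to test. A gene that is high in only 1 feeding group can pass this filter, as Cyp2b9 (median 9.51 CPM in ALF, 0.326 in TRF) and Acot3 (10.4 and 0.738) may have. Such a gene can hardly be called in the other direction, so the count of falls is partly set by the filter.

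Cyp7b1, an oxysterol hydroxylase, ran from 64.6 through 193 to 714 CPM over 24 ALF liver libraries and from 358 through 695 to 1054 over 24 TRF ones. It was higher at 11 of 12 clock times, by 1.38 ± 0.29 and 2.17 ± 0.35 in log2 fold change in the 2 windows (edgeR, adjusted p = 0.00291 and 4.231e-05). The complement genes C6 and C8a rose by 1.28 ± 0.28 and 1.15 ± 0.20 from ZT14 to ZT22 (adjusted p = 0.00111 and 9.904e-05), and the glutathione transferase Gstp1 by 1.05 ± 0.20 and 1.00 ± 0.23 (adjusted p = 9.489e-04 and 0.00177). Mup21, a major urinary protein gene, and Elovl3, a fatty acid elongase, rose from ZT0 to ZT12 by 0.91 ± 0.19 and 0.88 ± 0.17 (adjusted p = 0.00235 and 0.00131). In the second window Elovl3 was at -0.43 ± 0.21 (adjusted p = 0.113). Mup21, like other Mup genes, and Gstp1 have near-identical copies in the genome among which reads may be split.

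Cyp17a1, a steroid hydroxylase of the female list, ran from 7.03 through 32.0 to 57.3 CPM in ALF and from 2.91 through 7.14 to 26.8 in TRF, lower at 12 of 12 clock times. Its log2 fold changes were -1.97 ± 0.25 and -1.79 ± 0.28 (edgeR, adjusted p = 4.03e-06 and 3.206e-05). Cyp2b9, a P450 of the same list with close paralogs, ran from 0 through 9.51 to 210 CPM in ALF and from 0 through 0.326 to 11.1 in TRF (-4.88 ± 1.00 and -5.71 ± 1.19, adjusted p = 0.00191 and 6.421e-04). Abcd2, a peroxisomal transporter of very long chain fatty acids, was at -2.13 ± 0.44 and -2.74 ± 0.51 (adjusted p = 0.00226 and 2.067e-04), and its single libraries overlapped (1.56 to 70.2 CPM in ALF, 0.998 to 42.8 in TRF). Cyp2a4 was at -2.41 ± 0.46 from ZT0 to ZT12 and the acyl-CoA thioesterase Acot3 at -4.33 ± 0.80 from ZT14 to ZT22 (adjusted p = 9.337e-04 and 1.816e-04). In CPM, ALF libraries had the wider range in each of these 5 genes, whose ALF means were also higher. As a ratio of highest to lowest, the ALF range was not wider for Cyp17a1.

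**Figure D3:**
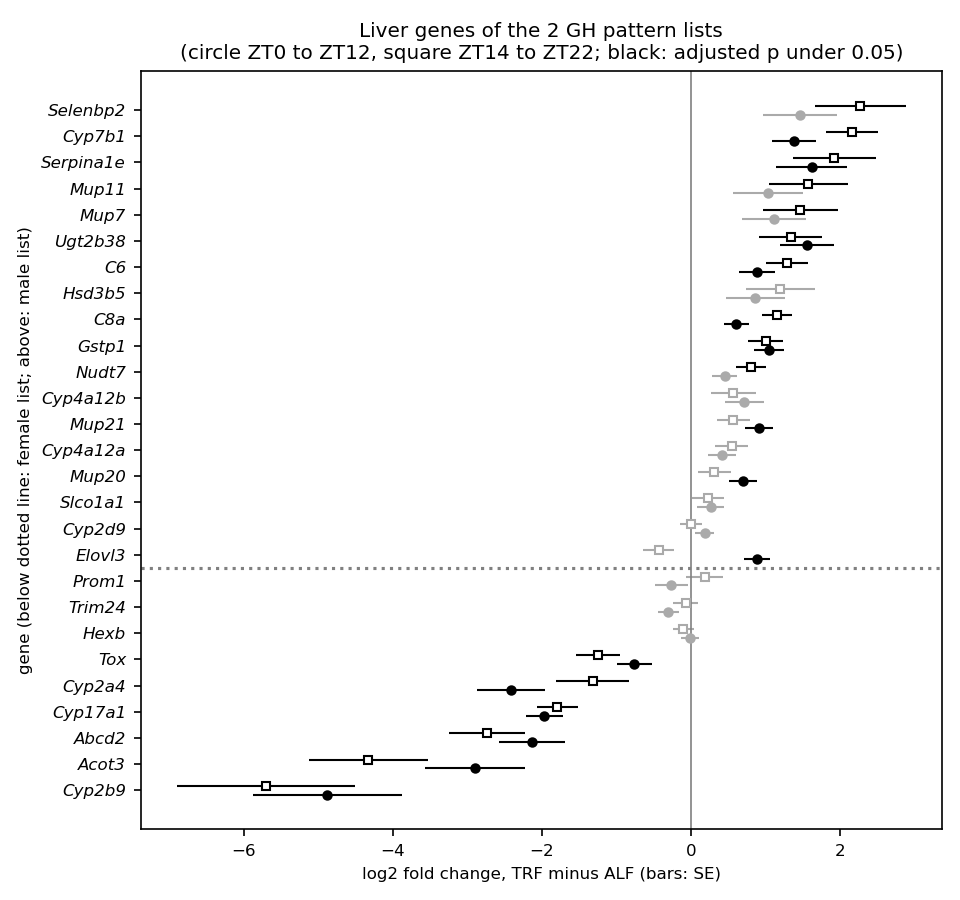
Log2 fold change of TRF minus ALF in the liver for the tested genes of the male list (above the dotted line) and the female list (below it), circles for ZT0 to ZT12 and squares for ZT14 to ZT22, bars for SE and black for an adjusted p under 0.05. All called genes of the male list lie above 0, from 9 to 10 a window, and all 6 called genes of the female list lie below 0, down to -5.71 for Cyp2b9.

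A separate list held 29 other genes of growth hormone and IGF signalling, of which 18 were tested in the liver. From ZT0 to ZT12 1 of the 18 was higher and 1 lower in TRF, where 3.62% and 4.02% of all tested genes were. Irs2, an insulin and IGF receptor substrate, rose (0.83 ± 0.26, edgeR adjusted p = 0.0404) and Prlr, the prolactin receptor, fell (-0.64 ± 0.15, adjusted p = 0.00562). In the second window 3 of the 18 were higher and 2 lower, where 12.05% and 14.28% of all genes were, so that the list's counts lay near those of other genes. The phosphatase gene Ptpn1 (0.67 ± 0.18), the liver transcription factor Hnf4a (0.33 ± 0.09) and Igfbp4 (0.28 ± 0.08) rose in this window, with adjusted p-values of 0.00544, 0.00759 and 0.00945. Stat5b, which carries the receptor's signal, fell (-0.40 ± 0.11, adjusted p = 0.0051), and so did Prlr (-0.61 ± 0.18, adjusted p = 0.00931), which was lower at 12 of 12 clock times. The list's median log2 fold change was 0.12 and 0.09, so it did not move one way.

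Outside the liver, the calls over 22 tissues and 8 members came to 16 member and tissue pairs from ZT0 to ZT12 and 25 from ZT14 to ZT22, liver included, among 139 tested pairs at a mean of 1 CPM or more. These are 11.5% and 18% of the pairs, where the share of all tested genes in the same tissues, averaged over the pairs, was 10.4% and 14.6%. The members as a group were thus called about as often as other genes. With only the replicate 2 libraries 4 of these 41 passed, and with only the replicate 1 libraries 20. In each case at most 1 library is left for each group and time. Across genes, fold changes went with GC content in the gut and in some other tissues, as a description over genes, which are not independent. Spearman rho ran from -0.65 in the duodenum (ZT0 to ZT12) to 0.64 in the stomach (ZT14 to ZT22). From ZT14 to ZT22 it was -0.62 in brown fat, -0.57 in the hypothalamus and 0.58 in the lung, but 0.02 in the liver. The value with GC content offsets is therefore given where it ended a call.

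**Figure D4:**
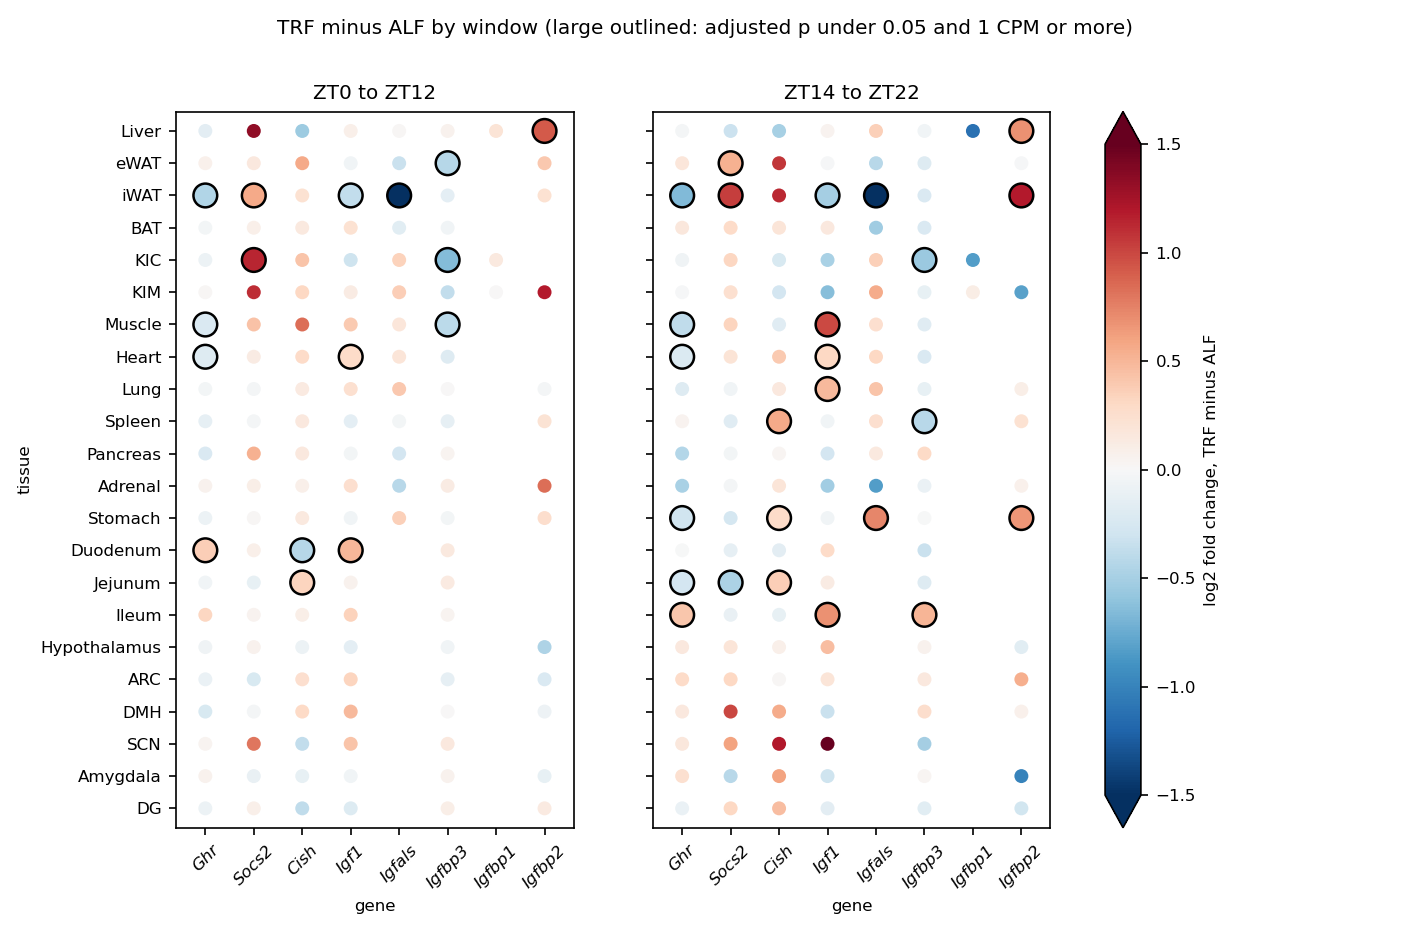
Log2 fold change of TRF minus ALF (colour, cut at 1.5 either way) for each member (columns) and tissue (rows) in the 2 windows, with large outlined points for pairs at an adjusted p under 0.05 and 1 CPM or more, small points for other tested pairs, and none where the gene was too low to test. There are 16 outlined points from ZT0 to ZT12 and 25 from ZT14 to ZT22, and inguinal fat (iWAT) holds 9 of the 41.

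In inguinal fat, where 49.4% of all tested genes passed from ZT0 to ZT12 and 56.0% from ZT14 to ZT22, the growth hormone axis genes moved in both directions. Igfals ran from 22.3 through 122 to 185 CPM in ALF and from 22.7 through 39.0 to 69.8 in TRF in the first window, and from 71.6 through 150 to 182 against 37.0 through 48.1 to 76.1 in the second. The second window's groups touched only between 71.6 and 76.1 CPM, and ALF was low at ZT12, at 43.7 and 22.3 CPM. The log2 fold changes were -1.57 ± 0.22 and -1.52 ± 0.25 (edgeR, adjusted p = 3.986e-06 and 3.232e-05), the largest falls of any member in any tissue among the called pairs. Without the 5 ALF libraries nearest to epididymal fat they were -1.35 and -1.55 and still passed. Ghr was lower by -0.45 ± 0.13 and -0.67 ± 0.15 (adjusted p = 0.0055 and 0.000613), and Igf1 by -0.37 ± 0.10 and -0.51 ± 0.12 (adjusted p = 0.00483 and 0.000998). Without those 5 libraries neither passed in the first window (adjusted p = 0.0941 for Ghr and 0.0834 for Igf1).

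Socs2 in inguinal fat was higher in TRF. From ZT14 to ZT22 it ran from 6.504 through 11.7 to 20.5 CPM in ALF and from 15.6 through 27.5 to 41.1 in TRF, higher at 5 of 5 times (1.04 ± 0.25, edgeR adjusted p = 0.00105). In the first window it was at 0.57 ± 0.22 (adjusted p = 0.0286), and at 0.37 without the 5 libraries (adjusted p = 0.239). Igfbp2 from ZT14 to ZT22 had means of 0.516 ± 0.319 and 1.38 ± 1.11 CPM (1.19 ± 0.49, adjusted p = 0.0361), and did not pass without them (adjusted p = 0.108). Sums of cell type markers also differed between the feeding groups, as a description. In inguinal fat B and T cell markers (4 of 4 detected) summed to 2.86 to 1467 CPM with a median of 186 in ALF and to 238 to 1073 with a median of 557 in TRF, and macrophage markers (7 of 7) had medians of 1873 and 3102. Skeletal muscle fibre markers (6 of 6) ran from 18.7 to 6281 CPM in ALF and from 15.5 to 15430 in TRF, and adipocyte markers (7 of 7) had medians of 31810 and 27480. Their part in the results was not tested.

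In epididymal fat 40.2% and 48.7% of genes passed in the 2 windows, and 1 member passed in each. Igfbp3 was lower from ZT0 to ZT12, with 23.2 through 36.0 to 47.7 CPM in ALF and 17.6 through 26.4 to 36.5 in TRF (-0.43 ± 0.12, edgeR adjusted p = 0.0076). Socs2 was higher from ZT14 to ZT22, with 4.56 through 7.65 to 9.83 CPM in ALF and 7.66 through 9.98 to 22.4 in TRF (0.54 ± 0.16, adjusted p = 0.00511). Macrophage markers had a median sum of 3405 CPM in ALF and 1527 in TRF there. Their part in the results was not tested.

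In muscle Igf1 was higher in TRF during the meal window. It ran from 17.8 through 22.4 to 31.5 CPM in ALF and from 34.8 through 43.5 to 73.5 in TRF, so that every TRF library lay above every ALF library. The log2 fold change was 1.00 ± 0.17 (edgeR, adjusted p = 0.000215), where 17.7% of muscle genes passed. Ghr in muscle was lower in that window, at 184 through 201.4 to 225 CPM in ALF and 135 through 159 to 177 in TRF, again without overlap (-0.38 ± 0.06, adjusted p = 0.000142). From ZT0 to ZT12, where 7.45% of genes passed, Ghr was lower by -0.23 ± 0.05 (adjusted p = 0.0159) and Igfbp3 by -0.40 ± 0.09 (adjusted p = 0.0127). That Ghr value did not pass with the boundary times left out (adjusted p = 0.0671). Muscle fibre markers had medians of 141400 and 146700 CPM in ALF and TRF, and macrophage markers of 148 and 234. Their part was not tested.

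In the heart, where 16.3% and 20.6% of genes passed, Ghr fell and Igf1 rose in both windows. The changes were small, from -0.22 to -0.19 for Ghr and from 0.29 to 0.31 for Igf1, and went one way at each of 12 clock times for both genes. In the lung Igf1 rose from ZT14 to ZT22 by 0.48 ± 0.13 (edgeR, adjusted p = 0.046), where 1.81% of genes passed. It did not pass with the boundary times left out (adjusted p = 0.123).

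In kidney cortex, 2.71% of genes passed from ZT0 to ZT12, and 2 members were among them. Socs2 ran from 4.41 through 9.79 to 27.5 CPM in ALF and from 5.82 through 27.0 to 63.3 in TRF, higher at 6 of 7 times (1.15 ± 0.31, edgeR adjusted p = 0.0346). Igfbp3 ran from 71.5 through 211 to 318 CPM in ALF and from 65.2 through 129 to 242 in TRF (-0.65 ± 0.15, adjusted p = 0.016). From ZT14 to ZT22, where 6.86% of genes passed, Igfbp3 ran from 162 through 207 to 244 against 91.8 through 119 to 204 CPM (-0.55 ± 0.18, adjusted p = 0.0497). None of the 3 values passed with the boundary times left out (adjusted p = 0.0706, 0.0511 and 0.131). Endothelial markers (5 of 5 detected) had a median sum of 297 CPM in ALF and 203 in TRF in kidney cortex, and their part in the Igfbp3 result was not tested.

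In the spleen, 9.96% of genes passed from ZT14 to ZT22. Igfbp3 was lower there, at 256 through 306 to 405 CPM in ALF and 172 through 237 to 328 in TRF (-0.42 ± 0.12, edgeR adjusted p = 0.0241), and Cish was higher, at 5.26 through 6.42 to 8.96 against 5.81 through 8.97 to 15.8 CPM (0.57 ± 0.17, adjusted p = 0.0306). The Igfbp3 value did not pass with the boundary times left out (adjusted p = 0.0597). Acinar pancreas markers, foreign to the spleen, had medians of 91.2 CPM in ALF and 2175 in TRF, with libraries up to 51470. Their part was not tested.

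Along the gut the calls depended most on GC content. In the duodenum, where 37.1% of genes passed from ZT0 to ZT12, Ghr (0.37 ± 0.08) and Igf1 (0.50 ± 0.14) were higher in TRF and Cish (-0.43 ± 0.13) lower (edgeR, adjusted p = 0.000416, 0.00577 and 0.0106). With GC content offsets none of them passed (adjusted p = 0.0572, 0.165 and 0.0535). In the ileum, where 18.1% passed from ZT14 to ZT22, Ghr ran from 40.4 through 57.9 to 73.8 CPM in ALF and from 63.1 through 81.1 to 109 in TRF (0.41 ± 0.11, adjusted p = 0.013, and 0.0708 with the offsets). Igf1 ran from 7.58 through 13.4 to 15.4 against 14.3 through 20.4 to 35.6 CPM (0.69 ± 0.19, adjusted p = 0.014) and Igfbp3 from 42.4 through 94.9 to 120 against 97.3 through 136 to 223 (0.52 ± 0.15, adjusted p = 0.0212). All 3 were higher in TRF at 5 of 5 clock times.

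In the jejunum, where 32.4% and 31.7% of genes passed in the 2 windows, Socs2 was lower from ZT14 to ZT22, at 44.3 through 58.3 to 65.5 CPM in ALF and 35.1 through 41.4 to 56.4 in TRF (-0.47 ± 0.07, edgeR adjusted p = 6.43e-06), and still passed with GC content offsets. From ZT0 to ZT12 it was at -0.12, and the difference between the windows passed (-0.35 ± 0.09, adjusted p = 0.0164), where 6.21% of jejunum genes did. No other member passed that test in any tissue. Cish in the jejunum was higher by 0.34 ± 0.10 and 0.37 ± 0.12 (adjusted p = 0.0104 and 0.0179, and 0.0673 and 0.0752 with the offsets), and Ghr was lower from ZT14 to ZT22 (-0.28, and adjusted p = 0.412 with the offsets).

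In the stomach 28.3% of genes passed from ZT14 to ZT22, among them Igfals (0.73 ± 0.19), Igfbp2 (0.66 ± 0.22), Cish (0.29 ± 0.10) and Ghr (-0.30). Igfals was at 1.60 through 2.495 to 3.71 CPM in ALF and 2.21 through 3.85 to 5.11 in TRF, and Igfbp2 at 34.2 through 53.3 to 92.0 against 40.1 through 74.8 to 108. None of the 4 passed with GC content offsets (adjusted p = 0.152, 0.659, 0.185 and 0.507, in the same order). Acinar pancreas markers had a sum of up to 7132 CPM in ALF and 14490 in TRF stomach libraries, and their part was not tested.

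Daily rhythms of the members were about as frequent as those of other genes. Of 139 tested member and tissue pairs at 1 CPM or more, 17 passed in ALF (12.2%) and 36 in TRF (25.9%), where 12.7% and 28.0% of all tested genes in the same tissues did, averaged over the pairs. In the test of the difference 0 of 139 passed (edgeR), against 1.89% of all genes. The counts of ALF and TRF do not test a difference. Igfbp1 passed in each of its 3 tissues in both groups. In kidney cortex, where 31.3% of genes passed in ALF and 46.9% in TRF, it peaked at ZT5.98 in ALF with an amplitude of 1.22 ± 0.26 and at ZT6.94 in TRF with 1.81 ± 0.26. In kidney medulla, where 34.0% and 48.3% passed, it peaked at ZT5.55 and ZT5.86 with 0.98 ± 0.18 and 0.99 ± 0.18. These peaks lie hours after the liver's, at ZT23.1 and ZT2.75, a distance that was not tested.

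Igfbp3 had its clearest rhythms in the adrenal gland and the lung. In the adrenal gland, where 11.3% of genes passed in ALF and 39.2% in TRF, its amplitude was 0.43 ± 0.08 at ZT5.80 in ALF and 0.66 ± 0.08 at ZT7.38 in TRF (edgeR, adjusted p = 0.000254 and 1.52e-08, and 0.233 for the difference). In the lung, where 42.6% and 37.7% passed, Igfbp3 had 0.58 ± 0.07 at ZT2.31 and 0.54 ± 0.07 at ZT3.38, and Igfbp2 0.46 ± 0.12 at ZT7.64 and 0.40 ± 0.12 at ZT8.41. In muscle, where 47.0% passed in TRF, Igfbp3 passed in TRF (0.29 ± 0.07 at ZT14.4, and 0.116 as the adjusted p of the difference), together with Igf1 (0.38 ± 0.12 at ZT20.3) and Socs2 (0.42 ± 0.13 at ZT13.0).

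Ghr passed in 4 tissues in ALF and 8 in TRF, which fell to 1 and 3 where a log2 amplitude of at least 0.25 was also asked for. Its largest amplitude was in the pancreas, 0.52 ± 0.10 in ALF and 0.57 ± 0.11 in TRF with peaks at ZT5.51 and ZT5.43, where 1.42% of pancreas genes passed in ALF and 17.8% in TRF. In the heart, where 33.4% and 51.2% passed, Ghr peaked at ZT16.2 and ZT16.6, and in both kidney regions between ZT15.8 and ZT18.9. Socs2 passed in 2 tissues in ALF and 9 in TRF. In the jejunum, where 55.8% of genes passed in TRF, its TRF amplitude was 0.28 ± 0.05 at ZT5.27 (adjusted p = 4.18e-05), with the smallest adjusted p of a rhythm difference among the members (0.0979). Socs2 also passed in the duodenum (15% of genes in ALF, 38.8% in TRF), in the stomach in TRF (21.4%) and in the dorsomedial hypothalamus in TRF (4.3%), with amplitudes in TRF of 0.29 to 0.63. Cish passed in no tissue in ALF and in 3 in TRF, the heart (0.31 ± 0.10 at ZT21.5), jejunum and ileum (45.5% of genes). Igf1 passed in ALF in the hypothalamus only (0.58 ± 0.13 at ZT7.28, adjusted p = 0.000646), where 10.2% of genes did, and in 4 tissues in TRF. The hypothalamus value rests on ALF libraries of 2 clock times, at 18.27 CPM at ZT6 (1 library) and 14.02 and 21.98 at ZT8, where the other ALF libraries ran from 3.90 to 9.01. The ZT6 library and the second at ZT8 also had the highest Ghr of the ALF libraries, at 85.4 and 64.7 CPM. Without ZT6 the Igf1 amplitude was 0.50 (adjusted p = 0.00564), without ZT8 it was 0.37 (adjusted p = 0.0567), and without both it was 0.18 (edgeR, adjusted p = 0.638).

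In the liver Cish, Socs2 and Igfbp1 differed widely between the 2 libraries of the same group and time. The median ratio between such libraries was 2.35-fold for Cish, 2.10-fold for Socs2 and 2.00-fold for Igfbp1, against 1.16-fold for the median gene with at least 5 CPM, and higher than that of 99.9%, 99.7% and 99.7% of these 9144 genes. Igfbp2 (1.67-fold) was above 98.9% of them. Igf1 (1.12-fold) and Ghr (1.14-fold) were among the steadier liver genes. Over the 24 pairs of liver libraries, 8 differed at least 4-fold in Cish, and the widest gap was 48.0-fold. Cish had a median ratio of 3.23-fold in muscle, 2.33-fold in pancreas and 2.05-fold in brown fat, but 1.17-fold in stomach and 1.14-fold in lung. The spread of Socs2 was not wide everywhere, since in lung it was above that of 33.6% of genes, in pancreas 50.0%, in heart 50.8% and in duodenum 51.1%. Igfbp2 had its widest ratio in kidney medulla, at 3.46-fold.

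The spread of Cish was shared between some organs and not between others. In 12 tissues the library names in the labels carry a code of a number and a letter, 53 codes in all, and each code stands for 1 feeding group, time and replicate. The labels do not say that libraries with the same code come from 1 mouse. Members were correlated between tissues over libraries with the same code, in 357 relations tested with 100000 permutations, two-sided and adjusted over all relations. These relations were chosen after the data were seen. Of 66 pairs of tissues, Cish correlated positively in 18 by both Pearson's and Spearman's test and Socs2 in 17, against 10 for Igfbp3, 7 for Ghr and 6 for Igf1. Negative relations numbered 0 for Cish, 3 for Socs2, and 2 each for Igfbp3, Ghr and Igf1. These tests do not remove feeding and clock time. Over differences between the 2 libraries of the same group and time, r was above 0.5 in 22 of 66 pairs of tissues for Cish (median 0.354) but in 4 for Socs2 (median 0.114), near the 3 for Igf1, 2 for Ghr and 1 for Igfbp3. All other genes were not compared in this way. For Igfals the count of positive relations was 2 of 21, for Igfbp1 1 of 3 and for Igfbp2 0 of 3.

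Between kidney cortex and liver, Cish had r = 0.752 and rho = 0.633 over 48 codes (permutation p = 1e-05 each, the smallest the permutations can give, adjusted p = 0.000255 and 0.000325), and r = 0.716 without the 2 libraries farthest from the median. Taken only as differences between the 2 libraries of the same group and time, which removes feeding and clock time, r was 0.846 over 24 pairs, with the same sign in 20. Between epididymal and inguinal fat Cish had r = 0.909 and rho = 0.862 over 44 codes (permutation p = 1e-05 each), r = 0.886 without the 2 farthest and 0.883 within groups. Brown fat had rho from -0.30 to 0.21 against the other 11 tissues. It was not alone in this, since Cish correlated positively in only 18 of all 66 pairs of tissues. The liver library with the least Cish, TRF at ZT4, replicate 2, was at 0.613 CPM, and the same code was at 2.90 in kidney cortex, 3.66 in epididymal fat and 5.79 in inguinal fat, but 48.9 in brown fat. The liver library with the most, TRF at ZT18, replicate 2, was at 79.8 CPM. Its code was at 35.9 CPM in kidney cortex, 70.2 in epididymal fat and 129.6 in inguinal fat, and at 11.2 in brown fat. From the first of these codes to the second, stomach also went down, from 20.98 to 15.82 CPM, while heart went up, from 59.98 to 127.9.

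Socs2 went together in a few pairs of tissues, liver and kidney among them. Between kidney cortex and liver it had r = 0.823 and rho = 0.829 over 48 codes (permutation p = 1e-05 each, adjusted p = 0.000255 and 0.000325), 0.804 without the 2 farthest libraries and 0.791 within groups. Between kidney cortex and medulla it had r = 0.953 and rho = 0.946 (permutation p = 1e-05 each), 0.944 without the 2 farthest and 0.911 within groups. Igf1, which the same receptor induces in textbooks, had rho of -0.01 between kidney cortex and liver, but 0.490 between kidney cortex and medulla (permutation p = 0.00041, adjusted p = 0.00472, r = 0.408 within groups) and 0.435 between epididymal and inguinal fat (permutation p = 0.00352, adjusted p = 0.0242, r = -0.00666 within groups). The 2 kidney regions may share more than a code, since 4 medulla libraries correlated best with cortex.

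**Figure D5:**
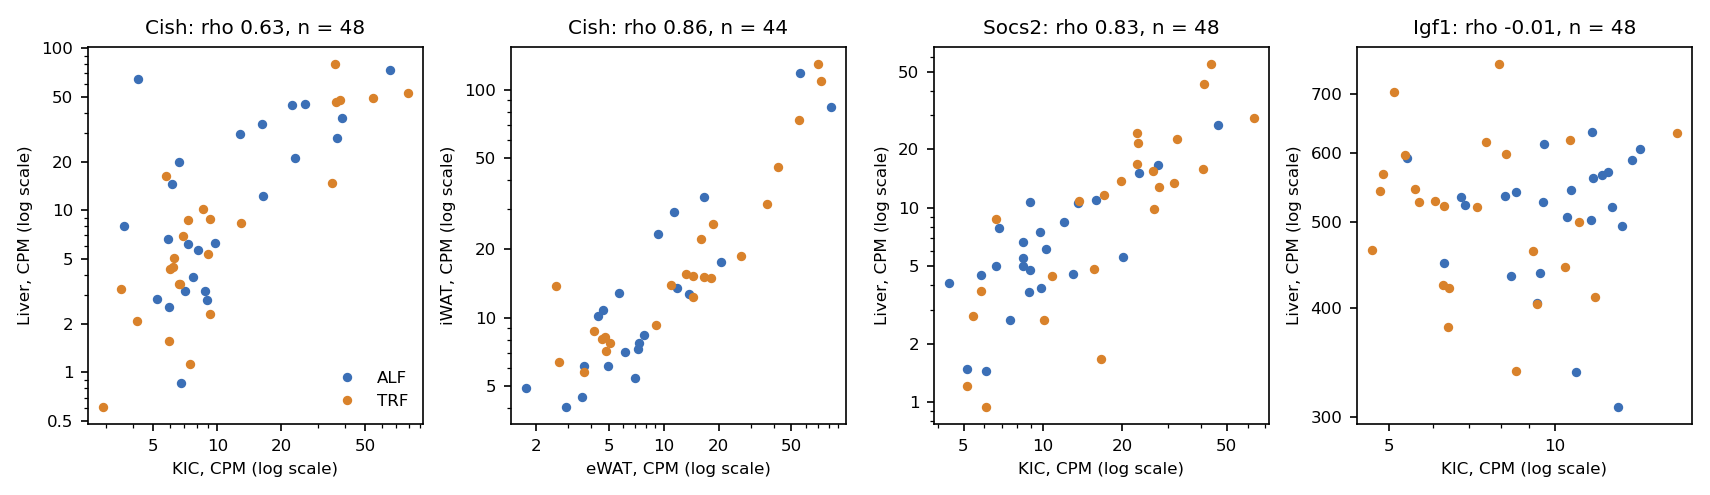
Each point is 1 library code, with its level in one tissue on the x axis and in another on the y axis, in CPM on logarithmic axes, for Cish and Socs2 and, for comparison, Igf1. Cish rises together in kidney cortex (KIC) and liver (rho 0.63) and in epididymal and inguinal fat (rho 0.86), Socs2 in kidney cortex and liver (rho 0.83), and Igf1 does not in kidney cortex and liver (rho -0.01).

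Within the liver, 28 pairs of members were compared over the 48 libraries. The permutation tests do not remove feeding and clock time, which only the r within groups does. Igf1 went with Igfals (r = 0.644, rho = 0.611, permutation p = 1e-05 each, adjusted p = 1.4e-04 each, r = 0.604 without the 2 farthest libraries, 0.475 within groups) and with Ghr (r = 0.614, rho = 0.553, permutation p = 2e-05 and 8e-05, adjusted p = 1.4e-04 and 7.467e-04, 0.595 without the 2 farthest, 0.277 within groups). Igfbp1 went against Igfals (r = -0.566, rho = -0.635, permutation p = 2e-05 and 1e-05, adjusted p = 1.4e-04 each, -0.650 without the 2 farthest, -0.482 within groups). It also went against Ghr (r = -0.590, rho = -0.474, adjusted p = 1.4e-04 and 0.00442 by permutation, -0.511 without the 2 farthest, -0.542 within groups). The same held against Igf1 (r = -0.539, rho = -0.448, adjusted p = 0.00101 and 0.00681 by permutation, -0.468 without the 2 farthest, -0.366 within groups). Socs2 and Cish went together (r = 0.463, rho = 0.505, permutation p = 9.1e-04 and 3.7e-04, adjusted p = 0.00364 and 0.00259, 0.483 without the 2 farthest), with r = 0.678 within groups. Neither Socs2 nor Cish followed liver Ghr (r = -0.18 and -0.11, adjusted p = 0.323 and 0.543 by permutation).

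The genes whose order over the 22 tissue means was most like a member's, among 18342 genes at 1 CPM or more in some tissue, were named by their Spearman rho as a description. For Ghr they were Fzd4 (0.893), Kyat3 (0.892) and Nox4 (0.881), and for Igf1 C1ra (0.895), Serping1 (0.887) and Mmp27 (0.885). For Igfals Folr2 came first (0.937), ahead of Msrb1 (0.891) and Echdc3 (0.887). Igfbp1 and Igfbp2 had looser matches, with Ttpa (0.797), Sardh (0.793) and Slc16a7 (0.755) for the former, and Scap (0.753), Gm32511 (0.734) and Aox3 (0.731) for the latter. Igfbp3 was most like Rbbp8 (0.932), Esm1 (0.916) and Znrd1 (0.912), Socs2 like Lima1 (0.90), Rassf3 (0.897) and F11r (0.895), and Cish like Magix (0.915), Ctf1 (0.877) and Dusp23 (0.837).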

How the data were processed

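Polyadenylated RNA of 22 tissues was sequenced as stranded libraries (1677 sequencing samples, 1035 of which have the title of a column of the table). Per the submitters' processing notes, CASAVA 1.8, FastQC 0.11.8, STAR 2.5.3a and HOMER 4.10 were used with the mouse genome GRCm38 (mm10). The deposited table holds expected counts per gene and library, of which 29.62% of values end in 0.5. How runs were joined and how strand was used are not given in the sources used here. The 4 rows with duplicated names were left out, which leaves 24533. Columns with no sample numbered 0. The hours 24 to 46 on liver and ileum labels were read as the same clock times, ZT0 to ZT22.

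Expected counts were rounded and fitted per tissue with edgeR 4.0.16 in R 4.3.3 (filterByExpr over feeding, TMM, quasi-likelihood test, Benjamini-Hochberg adjustment within a tissue and test, threshold 0.05). The window model had clock time as a factor and a TRF term for ZT0 to ZT12 and for ZT14 to ZT22. The rhythm model had a cosine and sine of 24 h per feeding group, with amplitudes and peaks from limma 3.58.1 on log2 CPM (prior count 2). For each member the 3 other genes with the highest Spearman rho over the 22 tissue means were named. The models were run on data simulated for liver, epididymal fat and dentate gyrus from the fitted spread, with independent libraries. Such data cannot show faults from GC content, misplaced libraries or technical replicates. Alternatives were DESeq2 1.42.0, its size factors, no filter, a block for the replicate number, leaving out either replicate number, GC content offsets (lowess, span 0.3), the 18 libraries that stand apart left out, boundary times left out, a second harmonic of 12 h and a minimum log2 amplitude of 0.25. Leaving out clock times for Igf1 in the hypothalamus was chosen after seeing the data. In no tissue did same-numbered libraries of the 2 feeding groups deviate together at all clock times.

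The text names the 8 members in the liver, and in other tissues the pairs that passed at 1 CPM or more (values in full for up to 4 tissues a member, the rest by count and range). Rhythms are given for the liver, for tissues with the smallest adjusted p of the difference, and for others chosen after their values were seen. Of each list up to 4 called genes each way a window, by smallest p, are named. The members and lists were chosen with earlier results of these data known. Relations over shared codes used log2 of CPM plus 0.5 in tissues with a mean of at least 5 CPM. Total counts set the counting precision, and p-values rest on the spread between libraries.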

Additional observations from a re-analysis of the deposited data

Results flagged for a closer look

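In the jejunum the TRF minus ALF difference of Socs2 from ZT14 to ZT22 differed from that from ZT0 to ZT12 by -0.35 on the log2 scale in edgeR's test of the difference between the windows, the only pair of a member and a tissue that passed it.

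From ZT14 to ZT22 several members passed with opposite signs in different tissues, each with TRF on the same side of ALF at 5 of 5 clock times. These differences between tissues were not tested. Ghr was higher in TRF in the ileum (0.41) and lower in the heart (-0.22), jejunum (-0.28), muscle (-0.38), stomach (-0.30) and inguinal fat (-0.67). Socs2 was higher in epididymal fat (0.54) and inguinal fat (1.04) and lower in the jejunum (-0.47). Igf1 was higher in the heart (0.31), ileum (0.69), lung (0.48) and muscle (1.00) and lower in inguinal fat (-0.51). Igfals was higher in the stomach (0.73) and lower in inguinal fat (-1.52). Igfbp3 was higher in the ileum (0.52) and lower in kidney cortex (-0.55) and spleen (-0.42). Of these, Ghr in ileum, jejunum and stomach and Igfals in stomach did not pass with GC content offsets.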

How the results depend on the processing

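No result changed direction among the 41 called pairs of member and tissue under the alternatives run. The call held for 41 of them with DESeq2 and with no filter, for 40 with DESeq2 size factors and for 40 with the replicate block, and for 30 with GC content offsets and 30 with boundary times left out. It held for 16 of the 20 pairs that the libraries apart touch, for 4 without replicate 1 and for 20 without replicate 2. Igfbp3 in kidney cortex from ZT14 to ZT22 had an adjusted p of 0.0543 with the replicate block and 0.052 with DESeq2 size factors. With the boundary times left out Socs2 in inguinal fat (ZT0 to ZT12, 0.0731), Cish and Igfbp2 in stomach (0.0832 and 0.151) and Igfbp2 in inguinal fat (0.0509) also did not pass. The counts of called pairs were 16 from ZT0 to ZT12 and 25 from ZT14 to ZT22, and with one replicate number left out they ran from 1 to 10 and from 3 to 11. In the liver 2 passed in each window with DESeq2, 2 from ZT0 to ZT12 with no filter and 2 from ZT14 to ZT22 with the boundary times left out, and 0 to 1 and 0 with one replicate number left out. Rhythms numbered 5 in ALF (both ways of leaving out a replicate number), 14 to 17 in TRF and 0 to 1 for their difference over all tissues, and 0 to 1 in ALF and 1 to 4 in TRF in the liver. Genes of the male list higher in TRF then numbered 0 to 3 and 4 to 6 in the 2 windows, and genes of the female list lower in TRF 1 and 2 to 4. The female list had 10 lower genes from ZT14 to ZT22 with no filter, and the male list 1 lower gene with the boundary times left out. The cause of these changes was not tested. With a replicate number or the boundary times left out fewer libraries entered the fits, and with no filter more genes did. The replicate block gave 37 rhythms in TRF against 36 and 12 genes of the male list higher from ZT14 to ZT22 against 10. Same-numbered libraries of ALF and TRF did not deviate together at every clock time in any tissue (correlations over 0.1 at 3 of 12 times in the liver and at most at 7 of 12, in ileum and kidney medulla). Single correlations ran from -0.78 in inguinal fat to 0.80 in kidney medulla. Replicate numbers were not taken as paired, but these values cannot exclude pairing at some clock times.

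With at most 2 libraries for each group and time, no difference at a single clock time was tested. Genes near 1 CPM, such as Igfbp2 in inguinal fat, rest on few counts. Codes shared between tissues were read from library names and were not shown by the labels to be mice.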
